A study of Mus musculus with 12 samples.

Results

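The 10 genes described here encode parts of the rod synapse, and this account follows their transcripts through rods and whole retina of mice with and without Pkm2 in rods. The set is *Cacna1f*, *Cacna2d4* and *Cabp4* (the calcium channel complex), *Ctbp2*, *Bsn* and *Pclo* (the ribbon and its anchors), *Cplx3* and *Cplx4* (release), and *Elfn1* and *Lrit3* (adhesion across the cleft). They were chosen by gene symbol, and each of the 10 symbols matched 1 of the 56748 genes in the deposited table. All 10 passed the filter on low values in every comparison, with between 473 and 23286 reads per gene and library.

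A rod ends in a spherule that holds a single large synaptic ribbon, a plate to which synaptic vesicles are tethered. In darkness, calcium enters through Cav1.4 channels clustered under the ribbon and drives a steady release of glutamate, and light lowers it. Glutamate is sensed by mGluR6 on the dendrites of ON bipolar cells, and leucine-rich proteins of the rod reach across the cleft to hold that receptor machinery in place.

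The libraries came from mice that were all homozygous for the Ribo-Tag allele, in which Cre tags ribosomes with HA, and that all carried the i75-Rod-Cre transgene, a rhodopsin-promoter Cre active in rods. Control mice had 1 floxed Pkm2 allele (Pkm2_Rodhet in the labels, designated WT in the methods), and Pkm2_Rodko mice had 2, so that the controls were heterozygous in rods and not unaltered. Tissue was frozen after perfusion with cycloheximide, and polyA RNA was sequenced from HA-immunoprecipitated polyribosomes (Rod-TRAP, here rods) and from the total lysate (here retina), with 3 libraries in each of the 4 groups. The age is uncertain, being 2 months by the methods but 2 weeks by the description deposited with the data. The sources used here do not state whether each library was a separate animal, so p-values measure the spread between these libraries, which may be technical.

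Totals ranged from 13458890 to 22790074 reads over the 12 libraries, and 3 libraries per group set the precision. Values are given as normalised reads, that is reads per gene put on 1 scale by TMM over all libraries, and log2 differences are of log2(normalised reads + 1). A change is called where the adjusted p of limma, over all genes tested, is under 0.05. The targeted gene followed its labels: *Pkm* fell by 1.21 on the log2 scale in Pkm2_Rodko rods (SE 0.0862, adjusted p = 6.22e-05) and by 0.67 in Pkm2_Rodko retina (SE 0.0726, adjusted p = 0.0108). The rod label was checked against markers: 10 of 10 rod markers were higher in control rods than in control retina, with a median log2 difference of 1.95, while 8 of 8 amacrine, 8 of 8 Müller, 5 of 5 horizontal, 8 of 8 ganglion and 8 of 10 bipolar markers were lower. The 9 of 9 cone markers were lower too, with a median of -0.70. In bulk samples, fewer cells of a type and less RNA per cell cannot be told apart. Rods here are polyribosome-bound RNA and retina is total RNA. Differences between them, and between their ratios, therefore cannot separate cell type from the binding of a transcript to ribosomes.

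Promoters of 7 of the 10 genes, in 8 entries because *Ctbp2* has 2, were found in RefSeq tables of build GRCm38.p6, each covering 250 bases before and 50 after the transcription start. They were searched on both strands for 2 sets of letters linked to rod transcription factors, TAATCC for a Crx-type and TGCTGA for a Nrl-type site, neither of which contains the other. The 3 sequences that follow are the bases before the start, 5′ to 3′ on the gene's strand, and were chosen to set a gene that was higher in rods without a match (*Elfn1*, chr5:139907616-139907865, plus strand) beside one with a match (the second entry of *Ctbp2*, chr7:133015248-133015497, minus strand) and one that was lower in rods (*Cplx3*, chr9:57606282-57606531, minus strand). Capitals mark the match.
Elfn1: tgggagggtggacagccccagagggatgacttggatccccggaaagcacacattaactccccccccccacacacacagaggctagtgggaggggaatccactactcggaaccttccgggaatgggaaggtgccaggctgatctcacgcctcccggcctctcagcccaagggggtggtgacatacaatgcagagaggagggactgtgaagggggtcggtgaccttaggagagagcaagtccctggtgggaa
Ctbp2: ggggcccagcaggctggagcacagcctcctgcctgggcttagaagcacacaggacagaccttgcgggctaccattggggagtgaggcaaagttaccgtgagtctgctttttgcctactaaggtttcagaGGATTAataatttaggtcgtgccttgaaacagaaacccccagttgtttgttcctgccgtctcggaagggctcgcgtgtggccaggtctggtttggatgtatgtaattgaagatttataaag
Cplx3: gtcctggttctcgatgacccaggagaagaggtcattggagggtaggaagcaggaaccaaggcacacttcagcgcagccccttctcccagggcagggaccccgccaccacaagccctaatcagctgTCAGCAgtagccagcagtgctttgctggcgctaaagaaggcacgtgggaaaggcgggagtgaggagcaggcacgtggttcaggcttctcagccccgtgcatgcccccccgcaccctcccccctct
The *Ctbp2* match begins 121 bases before the start and the *Cplx3* match 125 bases before it, both on the opposite strand and so printed as GGATTA and TCAGCA. *Lrit3* has a Nrl-type match 4 bases after its start, and none was found in the entries of *Cacna1f*, *Pclo*, *Elfn1*, *Bsn* or the other *Ctbp2* start. A Crx-type match was thus in 1 of 8 entries and a Nrl-type match in 2 of 8, against 7.06% and 19.5% of all 32851 promoters. A match is a description of letters and not of binding.

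Per kilobase of exon, the complexin *Cplx4* was the most abundant of the 10 transcripts in control rods, with a level of 11754 ± 521 normalised reads per kb (SD, n = 3). *Cabp4* followed at 3106 ± 339 per kb, and the libraries of these 2 genes did not overlap with those of any gene below. *Cacna2d4* (1456 ± 21.0 per kb) and *Ctbp2* (1375 ± 85.6) overlapped with each other, as did *Cplx3* (954 ± 159) with *Elfn1* (939 ± 66.3), and *Lrit3* (541 ± 26.3) with *Cacna1f* (540 ± 41.5). The giant scaffold proteins closed the list, *Bsn* at 49.5 ± 3.75 per kb and *Pclo* at 41.9 ± 2.95. Their exons sum to 15938 and 22457 bases in the GENCODE vM21 annotation, the longest of the 10. In control retina *Cplx4* again led (3867 per kb), with *Cplx3* next (2553 per kb) and then *Cabp4* (924 per kb). The order in Pkm2_Rodko rods was that of control rods save that *Cplx3*, at 658 per kb, stood below *Elfn1*, at 910, and overlapped with *Lrit3*, at 648.

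**Figure D1:**
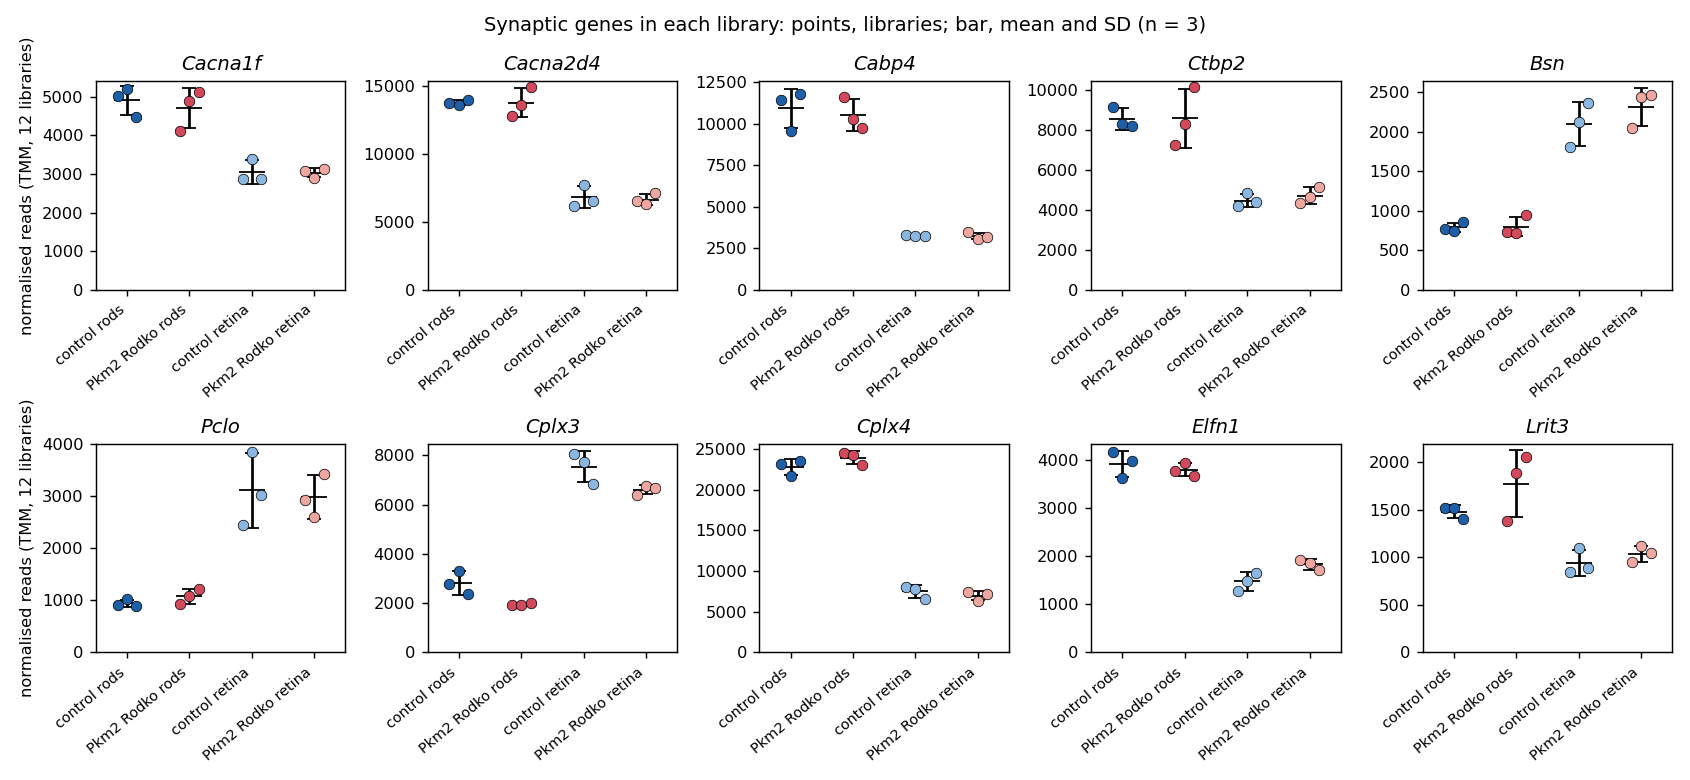
Normalised reads (linear axis from 0) of each of the 10 genes in the 12 libraries, with 1 panel per gene. Points are libraries and bars the mean and SD of 3. *Cplx4* lies between 21664 and 23561 in control rods and between 6623 and 8082 in control retina, and the order is opposite for *Bsn*, *Pclo* and *Cplx3*.

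The first comparison asked which of these transcripts were concentrated on rod ribosomes relative to the whole retina. In control mice 7 of the 10 genes were higher in rods and 3 lower (limma), beside 23.5% of all 25584 genes tested that were higher and 35.5% that were lower. The 7 were *Cabp4*, *Cplx4*, *Elfn1*, *Cacna2d4*, *Ctbp2*, *Cacna1f* and *Lrit3*, and the 3 were *Bsn*, *Cplx3* and *Pclo*. The 3 rod libraries lay entirely above or entirely below the 3 retina libraries for each of the 10 genes, beside 25.2% of all genes entirely above and 36.6% entirely below, with an exact permutation p = 0.1 for each gene, the smallest that 3 against 3 libraries allow. The median log2 difference of the 10 genes was 0.81, against -0.37 over all genes tested.

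The scale between rods and retina is not fixed by the data. The median of all genes lay at -0.42 with RLE scaling, -0.76 with scaling by total reads and -0.80 with the authors' scaling of each fraction. Under the last 2 scalings 8.43% and 7.48% of all genes were called higher and 49.1% and 50.7% lower. No member changed sign in control mice under any of these, but *Cacna1f* (0.14 by total reads, 0.09 by the authors' values) and *Lrit3* (0.11 and 0.07) lost their call, with adjusted p between 0.225 and 0.691 by limma, which leaves 5 genes higher. *Cacna1f* stood above the median of all genes by 1.05 with TMM and 0.89 with the authors' scaling, and *Lrit3* by 1.03 and 0.86. That median was below 0 under each scaling, and these distances from it were not tested.

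Among the channel genes, *Cabp4*, which encodes a calcium-binding protein that shifts Cav1.4 opening toward more negative voltages, showed the largest difference of the 3. It measured 11456, 9560 and 11764 normalised reads in control rods and 3293, 3229 and 3232 in control retina, a log2 difference of 1.74 (SE 0.0881, adjusted p = 2.51e-10 by limma). *Cacna2d4*, which encodes the alpha2delta-4 subunit of the channel, measured 13802, 13603 and 14001 in control rods and 6159, 7729 and 6556 in control retina, or 1.02 on the log2 scale (SE 0.0878, adjusted p = 6.7e-08 by limma). *Cacna1f*, the pore-forming subunit whose loss causes a form of congenital stationary night blindness, measured 5031, 5201 and 4479 against 2865, 3398 and 2876, or 0.69 (SE 0.0947, adjusted p = 1.28e-05 by limma). The rod libraries of all 3 genes lay above their retina libraries, by the least for *Cacna1f*.

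The partners of the channel were higher in the rod fraction, relative to retina, than the pore was. Per kb, the ratio of *Cabp4* to *Cacna1f* within a library was 4.75, 5.88 and 6.79 in control rods and 2.45, 2.90 and 2.97 in control retina, with no overlap. The ratio of *Cacna2d4* to *Cacna1f* was 2.51, 2.63 and 3.0 in control rods and 2.06, 2.18 and 2.19 in control retina, again without overlap (exact permutation p = 0.1 for each ratio). These ratios are taken within libraries and do not depend on the scale between rods and retina.

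At the ribbon, the genes split. *Ctbp2*, whose RIBEYE product builds the ribbon, measured 9164, 8286 and 8203 normalised reads in control rods and 4168, 4824 and 4371 in control retina, a log2 difference of 0.94 (SE 0.107, adjusted p = 1.73e-06 by limma). The gene also encodes the transcriptional corepressor CtBP2, and 1 value per gene cannot separate the transcripts. *Bsn*, the bassoon gene that anchors the ribbon to the active zone, measured 774.4, 738.7 and 855.4 in control rods and 1808, 2118 and 2360 in control retina, or -1.40 (SE 0.12, adjusted p = 6.74e-08 by limma). *Pclo*, the piccolo gene, measured 910.3, 1017 and 895.1 in control rods and 2442, 3858 and 3028 in control retina, or -1.70 (SE 0.145, adjusted p = 6.41e-08 by limma).

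*Bsn* and *Pclo* serve conventional active zones throughout the inner retina as well as the ribbon. The ratio of *Bsn* to *Pclo* per kb was 1.02, 1.20 and 1.35 in control rods and 0.774, 1.04 and 1.10 in control retina, with overlap (exact permutation p = 0.3). The 2 genes also have the longest transcripts of the set. Of the 419 genes tested with 15 kb of exon or more, 17.9% were higher and 52.0% lower in control rods, with a median of -0.40, against 26.9% and 38.9% and a median of -0.47 for 9300 genes of 2 to 5 kb. The part of length in the *Bsn* and *Pclo* values was not tested.

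The complexins, small proteins that clamp and prime vesicle fusion, went opposite ways. *Cplx4* measured 23220, 21664 and 23561 normalised reads in control rods and 8082, 7810 and 6623 in control retina, a log2 difference of 1.61 (SE 0.0867, adjusted p = 4.63e-10 by limma). *Cplx3* measured 2793, 3298 and 2359 in control rods and 8043, 7722 and 6849 in control retina, or -1.43 (SE 0.0997, adjusted p = 6.71e-09 by limma). The rod libraries were thus all high for one gene and all low for the other. *Cplx4* exceeded *Cplx3* per kb by 9.99-, 12.6- and 15.2-fold in the 3 control rod libraries and by 1.47-, 1.53- and 1.54-fold in the 3 control retina libraries.

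Of the transsynaptic genes, *Elfn1*, which encodes the rod protein that binds mGluR6 across the cleft, measured 4162, 3616 and 3970 normalised reads in control rods and 1280, 1492 and 1657 in control retina, or 1.41 on the log2 scale (SE 0.0919, adjusted p = 3.11e-09 by limma). *Lrit3*, whose protein is needed to place the TRPM1 channel on ON bipolar dendrites, measured 1524, 1524 and 1399 in control rods and 843.8, 1098 and 884.6 in control retina, or 0.66 (SE 0.132, adjusted p = 0.000459 by limma). Per kb the ratio of *Elfn1* to *Lrit3* was 1.56, 1.79 and 1.86 in control rods and 0.891, 0.996 and 1.23 in control retina. *Elfn1* was the more abundant of the pair in every control rod library and in 1 of 3 control retina libraries.

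**Figure D2:**
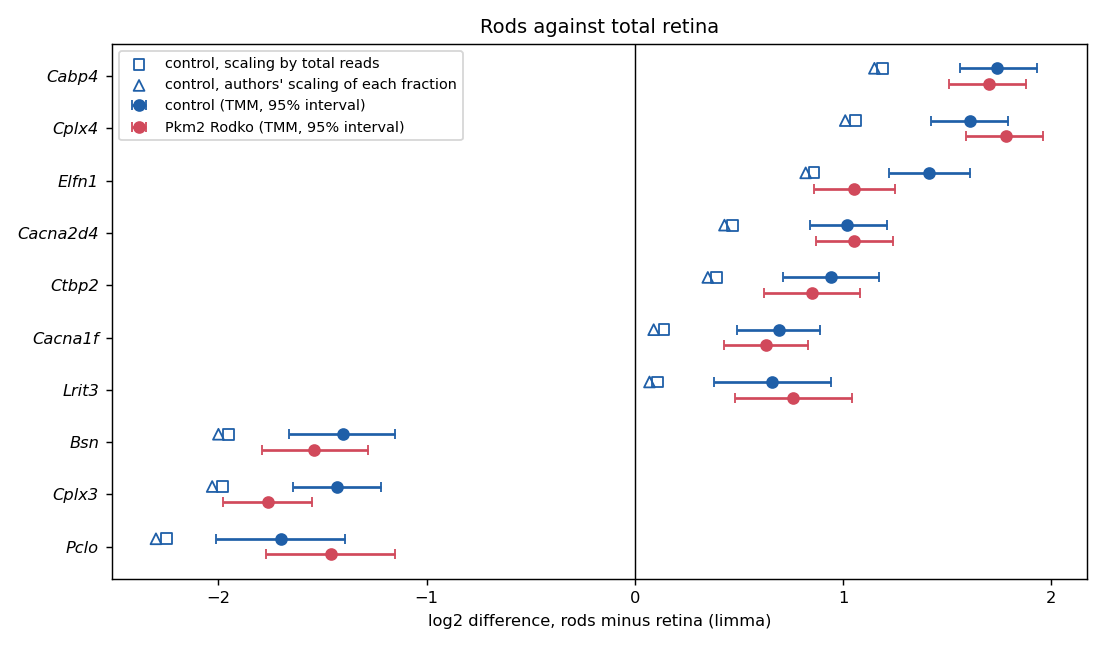
Log2 difference between rods and retina (horizontal axis) of each gene in control (blue) and Pkm2_Rodko mice (red), with 95% intervals from limma and TMM scaling. Open squares and triangles give the control value with scaling by total reads and with the authors' scaling of each fraction: they bring *Cacna1f* and *Lrit3* to between 0.07 and 0.14 and leave *Bsn*, *Cplx3* and *Pclo* at -1.95 or below.

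Another yardstick was the mean of the 10 rod markers in the same library. Against it *Cabp4* kept nearly the rod bias of the markers, its rods-minus-retina difference relative to theirs being -0.12 on the log2 scale, with -0.25 for *Cplx4* and -0.45 for *Elfn1*. Relative to the markers, *Cacna2d4*, *Ctbp2*, *Cacna1f* and *Lrit3* stood at -0.84, -0.92, -1.17 and -1.20, and *Bsn*, *Cplx3* and *Pclo* at -3.26, -3.29 and -3.56.

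The same comparison in Pkm2_Rodko mice uses other libraries. Again 7 genes were higher in rods and 3 lower, beside 23.9% and 35.1% of all genes tested (limma), and again the groups did not overlap for any of the 10, beside 26.3% of all genes entirely above and 36.7% entirely below. The log2 differences were 1.78 for *Cplx4*, 1.70 for *Cabp4*, 1.05 for *Elfn1*, 1.05 for *Cacna2d4*, 0.85 for *Ctbp2*, 0.76 for *Lrit3* and 0.63 for *Cacna1f*. They were -1.46 for *Pclo*, -1.54 for *Bsn* and -1.76 for *Cplx3*. With the authors' scaling the calls of *Cacna1f*, *Lrit3* and *Ctbp2* were lost, which leaves 4 genes higher, beside 8.0% of all genes higher and 49.4% lower under that scaling.

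The members were also compared with their relatives, the genes of other subunits of the same kind. Shares of a family per kb are taken within a library and are free of the scale between rods and retina. *Cacna1f* made up 99.2% ± 0.147 (SD, n = 3) of the L-type pores *Cacna1c*, *Cacna1d* and *Cacna1f* in control rods and 83.8% ± 1.07 in control retina. *Cacna2d4* made up 96.4% ± 0.344 of the 4 alpha2delta genes in control rods and 69.8% ± 3.33 in control retina. *Cabp4* made up 94.9% ± 0.763 of *Cabp1*, *Cabp2*, *Cabp4* and *Cabp5* in control rods and 47.2% ± 1.96 in control retina. *Elfn1* made up 97.6% ± 0.477 of the *Elfn1* and *Elfn2* pair in control rods and 67.4% ± 2.65 in control retina.

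The complexin, CtBP and Lrit families were more mixed in at least 1 fraction. *Cplx4* held 46.3% ± 1.42 of the 4 complexins in control retina and 90.6% ± 1.81 in control rods, while *Cplx3* stood at 30.6% ± 0.204 in control retina and 7.38% ± 1.41 in control rods. *Ctbp2* was 69.1% ± 3.11 of the CtBP pair in control rods and 57.9% ± 4.25 in control retina. *Lrit3* was the smallest of its family, with 7.42% ± 0.359 in control rods and 11.1% ± 0.542 in control retina, where *Lrit1* held 43.8% ± 2.5 and *Lrit2* 45.1% ± 2.07. The 3 rod and 3 retina libraries did not overlap in any of these shares of the 8 listed members. In normalised reads, 25.2% of all genes lay entirely above and 36.6% entirely below in control rods, so that such separation was common.

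The same genes led in Pkm2_Rodko mice. *Cplx4* held 93.5% ± 0.404 of the complexins in Pkm2_Rodko rods and 46.1% ± 2.89 in Pkm2_Rodko retina, *Cabp4* 96.6% ± 0.243 and 50.7% ± 3.02 of its family, and *Cacna2d4* 97.2% ± 0.526 and 71.3% ± 2.21.

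**Figure D3:**
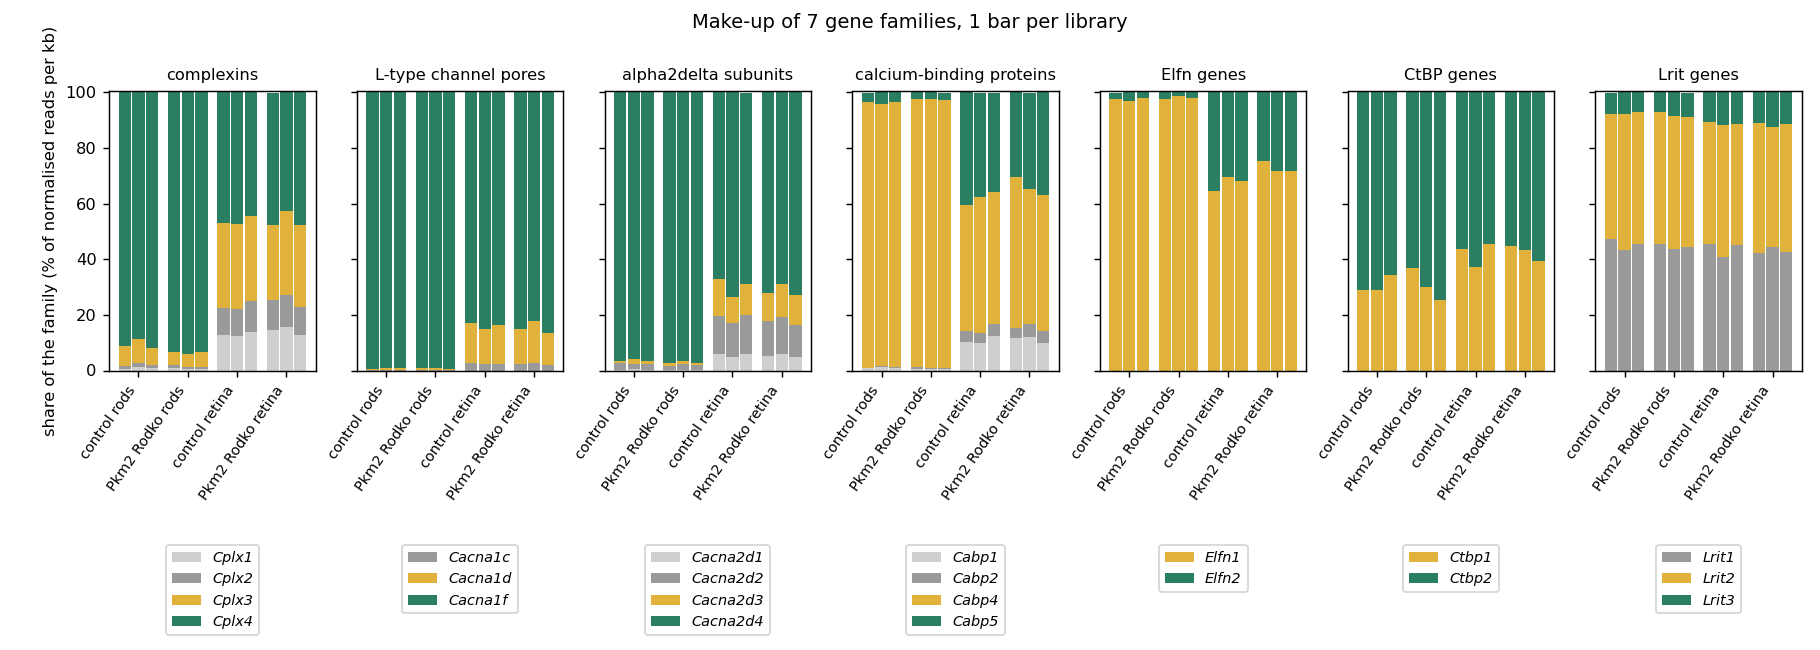
Share of each family (percent of normalised reads per kb, stacked to 100) held by each gene, with 1 bar per library and 3 bars per group. In rods a single gene fills 88.6% or more of the complexin, L-type pore, alpha2delta, calcium-binding protein and Elfn panels, and the CtBP and Lrit panels stay mixed.

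Further synaptic genes were taken from lists and are given by counts. Of 18 active zone and release genes, 9 were higher in control rods and 6 lower, with a median log2 difference of 0.36. This median was negative under 2 other scalings, at -0.19 by total reads and -0.24 by the authors' values, with 7 genes higher and 9 lower. The largest differences were 1.81 for *Unc119* and 1.40 for *Sv2b*, a vesicle protein, and -3.40 for *Erc1* and -2.90 for *Rims1*, both active zone scaffolds. *Erc1* was low in control rods, with a mean of 28.6 normalised reads. Their relatives on the list differed from them. *Rims2* averaged 7900 normalised reads in control rods and 4010 in control retina, and *Erc2* averaged 553 and 554. Of 8 genes for the terminal's scaffold, adhesion and calcium extrusion, 6 were higher and none lower, with a median of 0.86, led by *Egflam* (1.90), the gene of pikachurin, and *Ano2* (1.63), a calcium-activated chloride channel. By total reads this list had 5 higher and 2 lower, with a median of 0.31.

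On the other side of the cleft the order was reversed. Of 12 genes of the ON bipolar side, 9 were lower in control rods, with a median of -3.04, led by *Rgs11* (-3.63) and *Gpr179* (-3.46), and 2 were higher, *Gnb5* (1.54) and *Lrit1* (1.30), both of which are also known in photoreceptors. Of 13 paralogs of the 10 genes, 11 were lower, with a median of -2.73, led by *Cacna1d* (-3.85) and *Cacna1c* (-3.68), and 1 was higher, *Lrit2* (1.31). *Lrit1*, also a paralog of *Lrit3*, was counted on the ON bipolar side and not among these 13. These counts may be read against the shares of all genes, 23.5% higher and 35.5% lower.

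**Figure D4:**
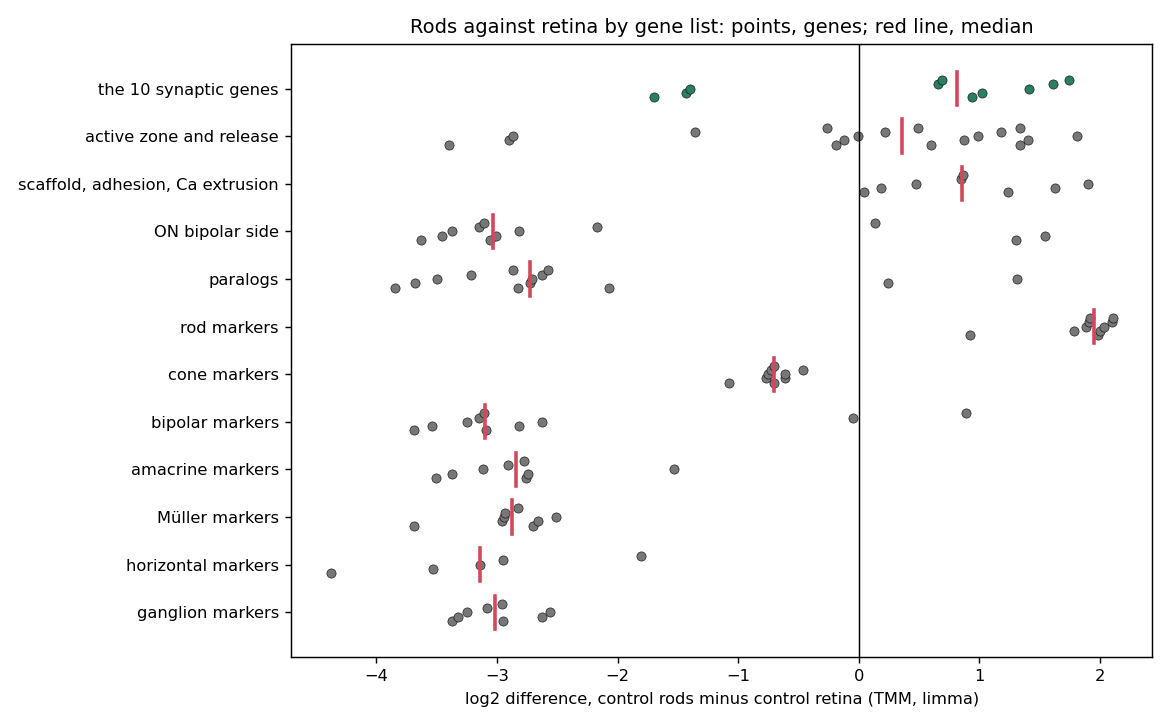
Log2 difference between control rods and control retina (TMM, limma) of each gene of 12 lists, with 1 row per list. Points are genes and red lines the list medians: the 10 synaptic genes sit at a median of 0.81, between the rod markers (1.95) and the ON bipolar side (-3.04).

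The second question was whether loss of Pkm2 in rods altered these transcripts. None of the 10 was called between genotypes in rods by limma, where 0.0185% of 21629 genes were called, nor in retina, where 0.00402% of 24881 genes were. At an unadjusted p under 0.05, 1 gene passed in rods (*Cplx3*), beside 4.74% of all genes, and 2 in retina (*Elfn1* and *Cplx3*), beside 4.36%. edgeR called 0 of the 10 in each fraction, among 4 genes in all in rods and 1 in retina. DESeq2 called 1 of the 10 in rods, *Cplx3*, among 7 genes in all, and 0 in retina, among 1. In rods 1 gene had Pkm2_Rodko libraries entirely below the controls and 0 entirely above, beside 5.39% and 4.22% of all genes. In retina 1 gene lay entirely below and 1 entirely above, beside 5.71% and 4.14%.

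The channel genes kept overlapping groups in rods. *Cacna1f* measured 4112, 4892 and 5125 normalised reads in Pkm2_Rodko rods, *Cacna2d4* 12834, 13596 and 14948, and *Cabp4* 11615, 10271 and 9722, around the control values given above. Among ribbon genes, *Ctbp2* measured 7248, 8317 and 10143 in Pkm2_Rodko rods, a wider range than in controls, while *Bsn* measured 733.9, 721.2 and 942.6 and *Pclo* 931.7, 1092 and 1219. *Cplx4*, the release gene with the most reads, measured 24513, 24292 and 23020 in Pkm2_Rodko rods, with 1 of the 3 inside the control range.

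For these genes and *Elfn1* the intervals of the difference included 0. The 95% intervals of the log2 difference in rods were -0.28 to 0.15 for *Cacna1f*, -0.18 to 0.18 for *Cacna2d4*, -0.27 to 0.17 for *Cabp4*, -0.25 to 0.23 for *Ctbp2* and -0.25 to 0.27 for *Bsn*. They were -0.11 to 0.25 for *Cplx4* and -0.23 to 0.14 for *Elfn1*. *Pclo* (0.19, from -0.05 to 0.44) and *Lrit3* (0.24, from -0.04 to 0.52) had the highest estimates, with overlapping groups. The Pkm2_Rodko libraries of *Lrit3* measured 1379, 1888 and 2060 normalised reads against 1524, 1524 and 1399 in controls, so that 1 of the 3 lay below all controls. The interval of *Cacna2d4* corresponds to a change between 0.88- and 1.13-fold.

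*Cplx3* had the smallest p of the 10 in rods. It measured 1932, 1906 and 1994 normalised reads in Pkm2_Rodko rods against 2793, 3298 and 2359 in control rods, means of 1944 ± 45.3 and 2817 ± 470 (SD, n = 3). All 3 Pkm2_Rodko libraries were lower than all 3 controls, and the controls were spread more widely. The log2 difference was -0.52 (SE 0.111, 95% interval -0.76 to -0.28) with an adjusted p = 0.743 by limma, and the gene ranked 12 by p among 21629. DESeq2 gave an adjusted p = 0.0291, and over the alternatives the difference ran from -0.64 to -0.40 and the adjusted p from 0.0291 to 0.999. The share of *Cplx3* among complexins was 5.0% ± 0.274 in Pkm2_Rodko rods and 7.38% ± 1.41 in control rods, and *Cplx4* exceeded *Cplx3* per kb by 17.6-, 19.3- and 19.4-fold in Pkm2_Rodko rods.

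In retina the *Cplx3* groups also did not overlap, with 6404, 6746 and 6677 normalised reads in Pkm2_Rodko mice and 8043, 7722 and 6849 in controls, a log2 difference of -0.19 (SE 0.0761, 95% interval -0.35 to -0.02, adjusted p = 0.938 by limma). The ratio of *Cplx4* to *Cplx3* overlapped there (1.43 to 1.78 in Pkm2_Rodko retina and 1.47 to 1.54 in control retina, exact permutation p = 0.5). The difference between the effects in rods and in retina was -0.33 for *Cplx3* (95% interval -0.64 to -0.03), with adjusted p = 0.978 by limma.

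Complexin 3 is known in cones and in bipolar and amacrine cells, and the markers of these cells are given beside it. In Pkm2_Rodko against control rods, the log2 difference was below 0 for 7 of 8 amacrine markers (median -0.46), 9 of 10 bipolar markers (median -0.43) and 7 of 9 cone markers (median -0.11), and none was called. The summed level of the amacrine markers was 1696 to 1947 normalised reads in Pkm2_Rodko rods and 1999 to 2861 in control rods, without overlap. That of the bipolar markers was 11870 to 14136 and 13141 to 13604, and that of the cone markers 9634 to 10774 and 9784 to 11840, both with overlap. No marker of these 3 lists was at 0 in any library. The log2 difference was also below 0 for 8 of 8 Müller (median -0.39), 8 of 8 ganglion (median -0.44) and 3 of 5 horizontal cell markers (median -0.36), where *Onecut2* stood at 1.08 and *Onecut1* at 0.14. It was above 0 for 9 of 10 rod markers (median 0.05), and the median of all genes was -0.01. None of these markers was called either. In retina it was below 0 for 10 of 10 bipolar markers (median -0.20), whose sums did not overlap (19359 to 23786 in Pkm2_Rodko mice and 23887 to 25046 in controls), 8 of 9 cone markers (median -0.14) and 6 of 8 amacrine markers (median -0.07), with none called. The retina log2 difference was also below 0 for 8 of 8 Müller markers (median -0.16), whose sums did not overlap. These sums were 61899 to 67061 in Pkm2_Rodko mice and 68630 to 75961 in controls. Below 0 in retina were also 6 of 8 ganglion (median -0.05) and 4 of 5 horizontal cell markers (median -0.12). Above 0 were 8 of 10 rod markers (median 0.09), and the median of all genes was -0.02. None of these markers was called in retina. The part of cone, bipolar and amacrine cells in the *Cplx3* difference was not tested.

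*Cplx3* also lies on chromosome 9 within 10 Mb of *Pkm*, with 31 protein-coding genes between them in RefSeq's GRCm38.p6 annotation, while *Bsn* is on the same chromosome outside that window. Of 221 genes tested within 10 Mb of *Pkm* in rods, *Cplx3* included and *Pkm* left out, 7.24% had Pkm2_Rodko libraries entirely below the controls, beside 5.39% of all genes, and 1 was called. In retina the shares entirely below were 11.4% of 237 genes and 5.71% of all genes. Entirely above the controls were 4.07% of the window's genes in rods, beside 4.22% of all genes, and 2.95% in retina, beside 4.14%. The median log2 difference in the window was -0.014 in rods and -0.042 in retina, beside -0.01 and -0.02 over all genes tested. Whether linkage to the floxed allele had a part in the *Cplx3* value was not tested.

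*Elfn1* showed the other separation. In retina it measured 1930, 1862 and 1708 normalised reads in Pkm2_Rodko mice and 1280, 1492 and 1657 in controls, all 3 above all 3, a log2 difference of 0.32 (SE 0.0954, 95% interval 0.11 to 0.52, adjusted p = 0.938 by limma). In rods it measured 3781, 3938 and 3673 against 4162, 3616 and 3970, or -0.04 (95% interval -0.23 to 0.14). The difference between the 2 effects was -0.36 (95% interval -0.64 to -0.08), with adjusted p = 0.978 by limma. In retina the log2 difference was above 0 for 8 of 10 rod markers (median 0.09), none called, and relative to them *Elfn1* was higher by 0.25. *Elfn1* made up 72.9% ± 2.14 of the Elfn pair in Pkm2_Rodko retina and 67.4% ± 2.65 in control retina, without overlap.

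For the remaining genes in retina the estimates lay between -0.10 (*Cplx4*) and 0.15 (*Bsn* and *Lrit3*), all with overlapping groups. The 95% intervals there were -0.18 to 0.17 for *Cacna1f*, -0.22 to 0.16 for *Cacna2d4*, -0.16 to 0.15 for *Cabp4* and -0.10 to 0.26 for *Ctbp2*. They were wider for the anchors, -0.08 to 0.37 for *Bsn* and -0.35 to 0.26 for *Pclo*. For *Lrit3* the interval was -0.08 to 0.37, and for *Cplx4* it was -0.29 to 0.09. None of the 18 active zone, 8 scaffold, 12 ON bipolar or 13 paralog genes was called between genotypes by limma in either fraction, and in rods 10 of the 12 ON bipolar genes (median -0.46) and 12 of the 13 paralogs (median -0.31) had log2 differences below 0, none past the test. No member was called for a difference between the genotype effects by limma, edgeR or DESeq2. That test called 0.0% of 25584 genes by limma, and at an unadjusted p under 0.05 passed 2 of the 10, *Elfn1* and *Cplx3*, beside 4.41% of all genes.

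**Figure D5:**
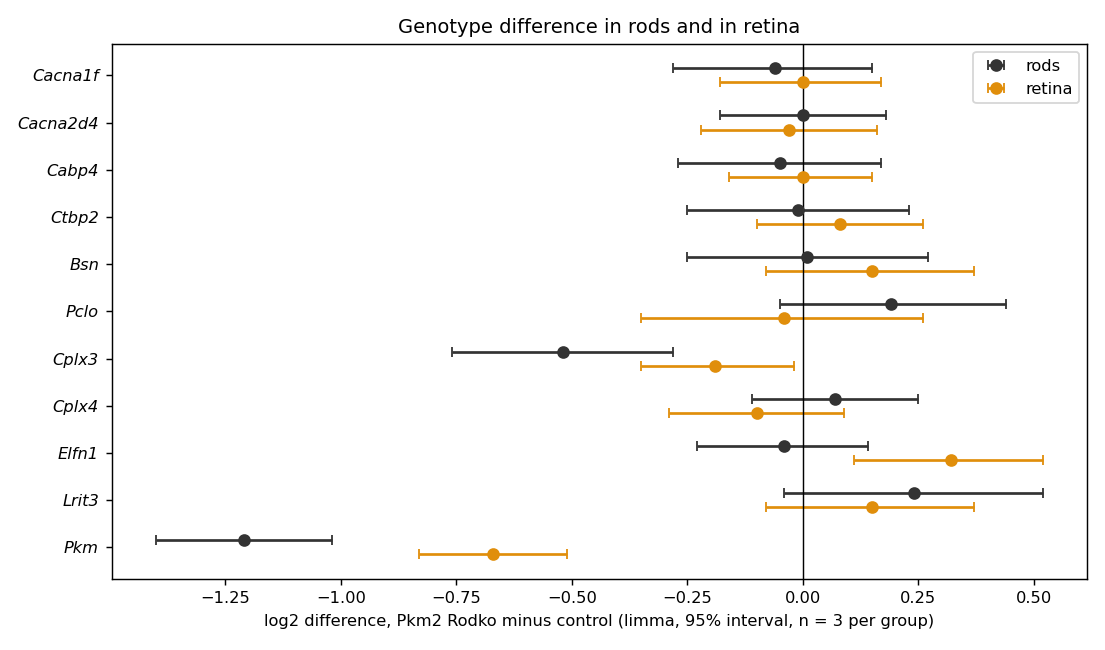
Log2 difference between Pkm2_Rodko and control mice (horizontal axis, 95% intervals from limma, n = 3 per group) in rods (black) and retina (orange), with *Pkm* as the targeted gene. Of the 10 genes, *Cplx3* in both fractions and *Elfn1* in retina have intervals that leave out 0, at -0.52, -0.19 and 0.32, and none passed adjustment.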

How the data were processed

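Polyribosome-bound RNA of rods and total retinal RNA were sequenced from 12 libraries in 4 groups, which were assigned from the sample labels. The deposited values are a signal, namely the reads of a gene divided by a size factor of its library. The submitters' processing notes name CASAVA 1.8.2, HISAT2, DESeq2, edgeR and the build GRCm39, without their roles. The counting tool, gene models and strand setting are not given in the sources used here, so reads of paralogs, overlapping and antisense genes could be shared.

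Reads were recovered from the smallest step of each library, which made 100.0% of the deposited values under 3000 whole within 0.1. The steps equal median-of-ratios size factors computed for each fraction alone, so rods and retina were rescaled together by TMM. Counts had been foreseen as a possible unit, and since the values are scaled, limma 3.58.1 (R 4.3.3) with a variance trend on log2(normalised reads + 1) was the main test, with edgeR 4.0.16 (quasi-likelihood) and DESeq2 1.42.0 run on those reads for comparison. edgeR called 4 genes between genotypes in rods and 1 in retina. Genes with a mean of at least 1 in 1 group were tested. Genotypes were compared within a fraction, and rods with retina in 1 fit of 4 group means, with Benjamini-Hochberg adjustment at 0.05. Exact permutation tests were two-sided. The limma fits of genotype in rods and of control rods against control retina were tested on simulated reads.

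All 10 members are named, with *Pkm* as a check and, from each list, up to 2 genes per direction with the largest called difference between control rods and retina. The members and lists were chosen with earlier results of these data known. Exon lengths came from GENCODE vM21, for 96.3% of the genes tested in the fit of all libraries. Libraries of the same number in rods and retina deviated together (r from 0.273 to 0.556 over 12730 genes within genotype), so a fit paired by number was an alternative. Python 3.11.15 with numpy 2.4.6, pandas 2.3.3, scipy 1.17.1 and matplotlib 3.10.9 computed shares and drew figures.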

Additional observations from a re-analysis of the deposited data

How the results depend on the processing

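Within control or Pkm2_Rodko mice, the rods-minus-retina differences of the 10 genes kept their direction under every alternative run (RLE, total reads and the authors' scaling, a pseudocount of 0.1, a minimum of 10 reads, edgeR, DESeq2, the pairing of libraries, and leaving out each library), and their calls under all but the total reads and authors' scalings. With the authors' scaling 4 genes instead of 7 were higher in Pkm2_Rodko rods, and 12.9% instead of 39.8% of all called genes were higher in control rods (14.7% by total reads). The fit with a replicate block on the pairing changed no member's call there. The cause was not tested.

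Between genotypes, the number of genes called in rods moved from 4 to 7 with DESeq2, 17 with 1 fit of all 12 libraries and 8 with the replicate block, and from 1 to 6 when 1 library was left out (1 without control rods replicate 2, 2 without control rods replicate 1 or Pkm2_Rodko rods replicate 3). DESeq2 called 1 member. In retina the number moved from 1 to 0 with the minimum of 10 reads and with the replicate block, and from 0 to 5 when 1 library was left out (5 without control retina replicate 3, 3 without replicate 2, 0 without replicate 1 or any 1 Pkm2_Rodko library). Control and Pkm2_Rodko libraries share only a number: their deviations correlated from -0.29 to 0.0376, and no library correlated best with its own number. Control replicate 3 and Pkm2_Rodko replicate 1, for example, correlated at 0.309 in rods and 0.317 in retina.

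Signs turned for some differences that were under 0.1 or above -0.1 on the log2 scale, and for none of *Cplx3* or of *Elfn1* in retina. In rods *Cacna2d4* became 0.005 with the authors' scaling, 0.017 with edgeR and 0.008 with DESeq2, and *Ctbp2* 0.022 and 0.012 with the latter pair. In retina RLE scaling, the authors' scaling, edgeR and DESeq2 gave 0.004, 0.015, 0.012 and 0.011 for *Cacna1f*, and 0.001, 0.012, 0.014 and 0.014 for *Cabp4*. The difference between fractions became -0.005 for *Cacna2d4* by total reads. Leaving out 1 library gave ranges across 0 in rods for *Cacna1f* (-0.126 to 0.033), *Cacna2d4* (-0.063 to 0.047), *Cabp4* (-0.144 to 0.006), *Ctbp2* (-0.137 to 0.105), *Bsn* (-0.115 to 0.078) and *Elfn1* (-0.099 to 0.003). In retina they were -0.043 to 0.08 for *Cacna1f*, -0.103 to 0.061 for *Cacna2d4*, -0.049 to 0.032 for *Cabp4* and -0.206 to 0.123 for *Pclo*. For the difference between fractions they were -0.141 to 0.034 for *Cacna1f*, -0.065 to 0.099 for *Cacna2d4*, -0.14 to 0.01 for *Cabp4*, -0.217 to 0.026 for *Ctbp2* and -0.022 to 0.268 for *Lrit3*. With 3 libraries per group, the intervals given for each gene set the precision.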
